A study of Mus musculus with 2 samples.

Results

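The Hox genes of the mouse chondrogenic cell line ATDC5 are described here across 2 arrays. Probes were taken as Hox probes when the array design gave a RefSeq transcript of a Hox gene as their target, and 38 Hox genes with 41 probes on 59 spots were found this way, among 20657 named genes with a probe. By cluster these were 10 HoxA, 10 HoxB, 9 HoxC and 9 HoxD genes. ATDC5 is an established line that came from a teratocarcinoma and forms cartilage-like nodules when given ITS, a supplement of insulin, transferrin and selenite. Both groups were stable ATDC5 lines with a doxycycline-inducible transgene: the control line carried GFP, and the other carried A-CEBP, an engineered inhibitor that binds C/EBP transcription factors so that they cannot bind DNA. Both received doxycycline at 2 µg/mL for 2 days and then ITS for 3 weeks. Each group held 1 culture on 1 array, so the spread among cultures is unknown and no test between the groups was possible. The sources used here do not say whether a line is 1 clone, and no probe was named for either transgene, so their expression was not checked. A difference between the 2 lines that has nothing to do with the transgene cannot be told apart from one that follows it.

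Hox genes encode homeodomain transcription factors that give cells their address along the head-to-tail axis and along the limbs. In mammals they lie in clusters, and genes of like position and sequence in different clusters form paralogous groups, numbered from 1 to 13. Low-numbered groups are switched on in anterior parts of the embryo and high-numbered groups in posterior and distal parts, in the order in which they lie on the chromosome. Skeletal cells keep much of this pattern after development, so that the set of Hox genes a cartilage cell expresses is used as a mark of where it came from. Groups 1 to 3 are called anterior here, 4 to 8 central and 9 to 13 posterior.

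Markers of cartilage were present, and so were some markers of other cells. All 10 chondrocyte markers examined, among them Col2a1, Acan, Sox9 and Col10a1, were well above background on both arrays, the mark that the scanner software sets on a spot clearly brighter than its surroundings. Of markers of other cells, the leukocyte genes Ptprc and Adgre1, the endothelial genes Cdh5 and Tek and the epithelial gene Epcam were well above background on neither array. Other markers of those cells passed the mark on both, namely 4 of 7 leukocyte genes (Itgam, Csf1r, Cd3e and Lyz2), 2 of 4 endothelial (Kdr and Pecam1) and 3 of 5 epithelial (Krt8, Krt14 and Krt18). Itgam was at levels of 4.43 (GFP) and 4.67 (A-CEBP) and Kdr at 2.89 and 2.98, and the part of such cells in the Hox values was not tested. The median differences of these lists were 0.03, -0.05 and -0.63. The 2 arrays had 59305 spots each outside the controls, of which 54.6% (GFP) and 58.0% (A-CEBP) were well above background, and no spot was saturated. For the 13860 named genes that passed this mark on each array, the median log2 difference, A-CEBP minus GFP after subtraction of each array's 75th percentile, was 0.05.

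Which Hox genes were on was nearly the same in the 2 cultures. A gene is called seen on an array when its probe passed that mark. Of 38 Hox genes 27 (71.1%) were seen in the GFP sample, against 67.9% of all named genes, and in the A-CEBP sample 28 (73.7%), against 70.4%. The same 27 were seen on both arrays (67.1% of all named genes were), 10 were seen on neither, and 1, Hoxc8, was seen in the A-CEBP sample only (3.26% of all named genes), whereas none was seen in the GFP sample only (0.828%). The shares were thus close to those of all genes, and the pattern lay in which members they were. With a looser mark of the scanner software, which asks that a spot differ from background at all, 32 and 33 Hox genes were seen and 31 on both arrays.

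Central members were nearly all seen, and fewer of the anterior and posterior members were. Of 15 central genes the GFP sample had 14 and the A-CEBP sample all 15, while 4 of 7 anterior and 9 of 16 posterior genes were seen on both arrays. Every described member of groups 2, 4, 5, 6, 7 and 9 was seen on both arrays. No member of groups 11 and 12 was, that is Hoxa11, Hoxc11 and Hoxd11 of the group that shapes the sacrum and the forearm and shank, and Hoxc12 and Hoxd12. The clusters differed in how much of them was on, with 9 of 10 HoxA, 8 of 10 HoxB, 6 of 9 HoxC and 4 of 9 HoxD genes seen on both arrays.

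**Figure D1:**
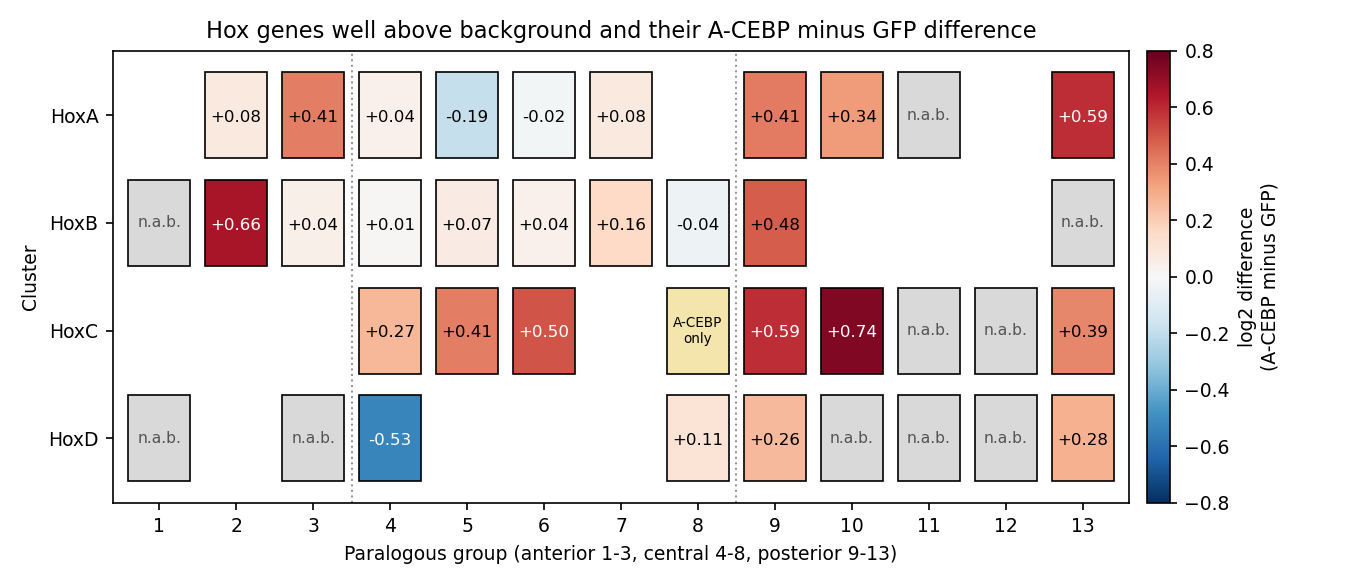
Each box is a Hox gene, placed by cluster (rows) and paralogous group (columns), with its log2 difference, A-CEBP minus GFP, printed and coloured where it was well above background on both arrays; n.a.b. marks genes not well above background on either array, the yellow box is Hoxc8, and blank places hold no gene or one not described here. All coloured boxes in the HoxC row and in the posterior columns are positive, from 0.26 to 0.74, while most central HoxA and HoxB boxes lie close to 0.

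At the anterior end, the group 1 genes Hoxb1 and Hoxd1 gave no signal clear of background. Hoxb1, a gene of the hindbrain segment that makes the facial nerve, had 10 spots on each array, and the brightest read 14.8 units (GFP) and 12.3 (A-CEBP). None of these 20 readings was marked, so the call does not rest on a single spot. Hoxd1 read 7.56 and 6.06 units, and Hoxd3 18.4 and 7.07, all unmarked. On the HoxD cluster the first member seen was therefore Hoxd4.

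At the posterior end the runs broke off at different genes. On HoxA every described member through Hoxa10 was seen, on HoxB every member from Hoxb2 through Hoxb9, and on HoxD only Hoxd8 and Hoxd9 followed Hoxd4. Hoxa11, which also had 10 spots, read a median of 8.64 units (GFP) and 6.70 (A-CEBP), with 1 marked spot, at 45.0 units in the GFP sample. That spot was 1 of 2 left out as outliers. The gene was not called seen because none of the 8 spots kept was marked on either array. Hoxb13, a gene of the tail end, read 8.47 and 6.60 units, Hoxc11 7.76 and 13.7, and Hoxc12 18.2 and 10.4. On HoxD, Hoxd10 read 9.23 and 13.1 units, Hoxd11 8.33 and 15.6, and Hoxd12 7.27 and 5.51. Each of these probes was unmarked on both arrays.

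Beyond that gap, 3 of the 4 group 13 genes, known for shaping digits, nails and the genital region, were seen again at low signal. Hoxa13 read 45.8 units (GFP) and 71.8 (A-CEBP), Hoxc13 60.2 and 81.8, and Hoxd13 81.0 and 102 units. On the scale relative to the 75th percentile their GFP levels were -4.25, -3.86 and -3.43, where the lowest probe well above background on that array was at -4.73. The second Hoxa13 probe read 14.6 and 44.8 units and was marked in the A-CEBP sample only, at least 1.31-fold higher there. The bound sets the A-CEBP reading against the dimmest marked probe of the GFP array.

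No Hox gene seen on both arrays differed by 2-fold or more between the cultures, where 2.96% of all named genes did. Smaller differences were mostly upward in the A-CEBP sample: 23 of 27 members were above 0, against 59.1% of all named genes, with a median of 0.26 against 0.05. At 1.5-fold, a threshold added after the values were seen, 4 members were higher (4.7% of all named genes were) and none lower (3.8%). These 4 were Hoxc10, Hoxb2, Hoxa13 and Hoxc9. For 15 of 27 members the difference was larger than the error that the scanner software's model gives for it, against 36.9% of all named genes. This error, printed after ± below, covers the measurement of 1 spot pair and not the spread between cultures. For scale, the SD of the log2 difference between different probes of 1 gene was 0.19 over 3601 genes.

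**Figure D2:**
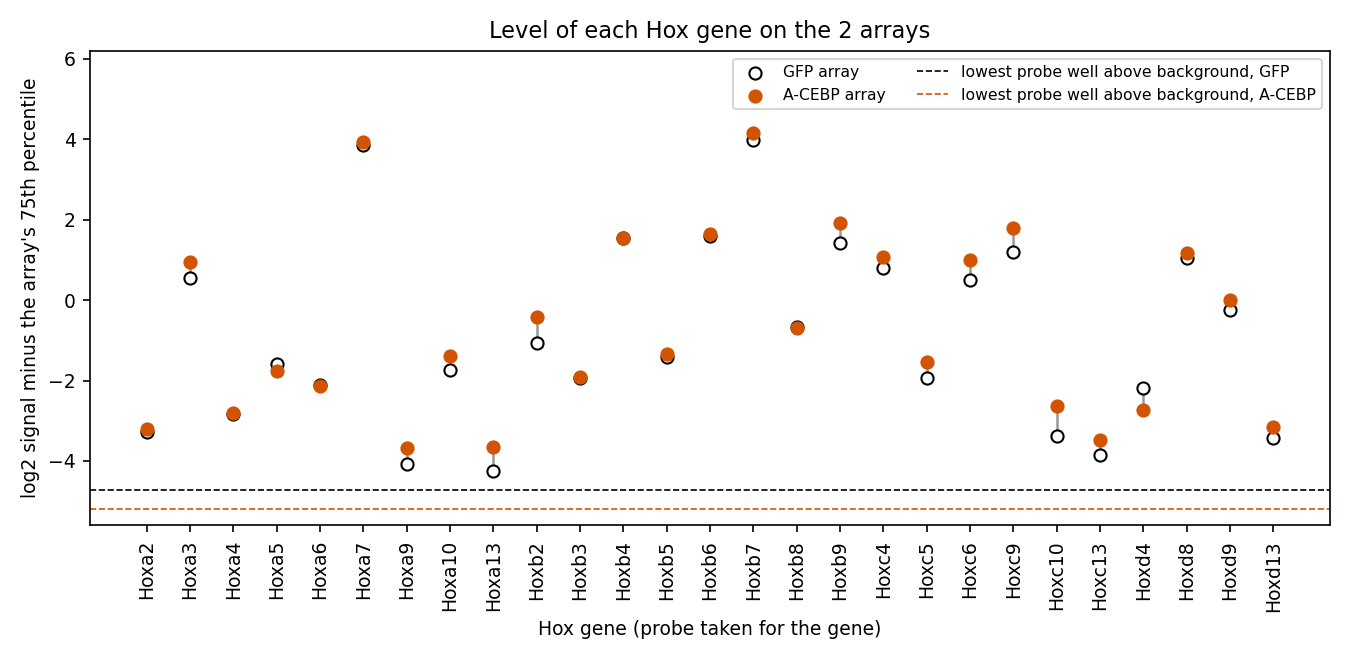
Level of each Hox gene seen on both arrays, as log2 signal minus the array's 75th percentile, with open circles for GFP, filled circles for A-CEBP and dashed lines for the lowest probe well above background on each array (-4.73 and -5.19). The 2 circles of Hoxb4 coincide at 1.55, whereas those of Hoxc10 stand apart at -3.39 and -2.64; heights of different genes are not comparable, since each probe binds with its own strength.

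The posterior members were all higher in the A-CEBP sample. All 9 seen on both arrays were above 0, from 0.26 to 0.74 with a median of 0.41, and all 9 differences exceeded their error. With normexp background, another way to remove background signal, they stayed above 0, but the 5 dim ones shrank. They fell to 0.02 for Hoxd13, 0.05 for Hoxa9, 0.10 for Hoxc13, 0.21 for Hoxa13 and 0.37 for Hoxc10. As run here, normexp also added 50 units to every spot, which by itself draws the differences of dim probes toward 0. How much of the shrinkage came from the background removal was not tested. The 14 central members had a median of 0.05 with 10 above 0, and 4 of them exceeded their error. Among group 9 genes, which help to place the forelimb and pattern the thorax, Hoxb9 read 2342 units (GFP) and 3395 (A-CEBP), a log2 difference of 0.48 ± 0.20. Hoxc9 read 2009 and 3136 units (0.59 ± 0.20), and Hoxd9 734 and 913 units (0.26 ± 0.20). Hoxa9 read 51.5 and 71.3 units (0.41 ± 0.30), and its second probe, marked in the A-CEBP sample only, read 30.5 and 34.4 units. All 4 clusters thus had their group 9 gene on, and in each it was higher in the A-CEBP sample.

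Group 10 genes specify the lumbar spine, where they keep vertebrae free of ribs. Hoxa10 read 262 units (GFP) and 344 (A-CEBP), a log2 difference of 0.34 ± 0.21. Hoxc10, a gene of the lumbar region and the hindlimb, read 83.5 and 145 units, which at 0.74 ± 0.26, or 1.67-fold, was the largest difference of the 27. With normexp background it was 0.37, below Hoxb2 (0.63), Hoxc6 (0.57), Hoxc9 (0.52) and Hoxb9 (0.51), among others. In group 13 the differences were 0.59 ± 0.32 for Hoxa13, 0.39 ± 0.29 for Hoxc13 and 0.28 ± 0.25 for Hoxd13.

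HoxC was the cluster whose seen members were all higher, central ones included. Its 6 members had a median of 0.45 (range 0.27 to 0.74), against 0.08 for 9 HoxA, 0.06 for 8 HoxB and 0.18 for 4 HoxD genes. Hoxc4, the first gene of the cluster, read 1529 units (GFP) and 1908 (A-CEBP) (0.27 ± 0.20). Its neighbours Hoxc5, at 228 and 314 units (0.41 ± 0.21), and Hoxc6, a thoracic gene, at 1238 and 1818 units (0.50 ± 0.20), were further apart. Hoxc8, which shapes the lower thoracic ribs and vertebrae, read 11.5 units (unmarked) and 31.6 (marked); no fold is given, because the A-CEBP reading lay under the lowest marked level of the GFP array. In the order Hoxc4, Hoxc5, Hoxc6, Hoxc9, Hoxc10 each gene's difference was larger than that of the gene before it, and Hoxc13 broke the order, as did Hoxc5 with normexp background (0.25, against 0.33 for Hoxc4). From Hoxc4 to Hoxc10 the steps from each gene to the next were smaller than the errors of the values. The step from Hoxc10 down to Hoxc13 was larger than the error of either value, but not than both errors combined. Over the 27 members, Pearson's r between paralogous group and log2 difference was 0.40, and by cluster it was 0.61 for HoxA, -0.14 for HoxB, 0.42 for HoxC and 0.88 for HoxD (4 genes), given as a description of genes that share both arrays.

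**Figure D3:**
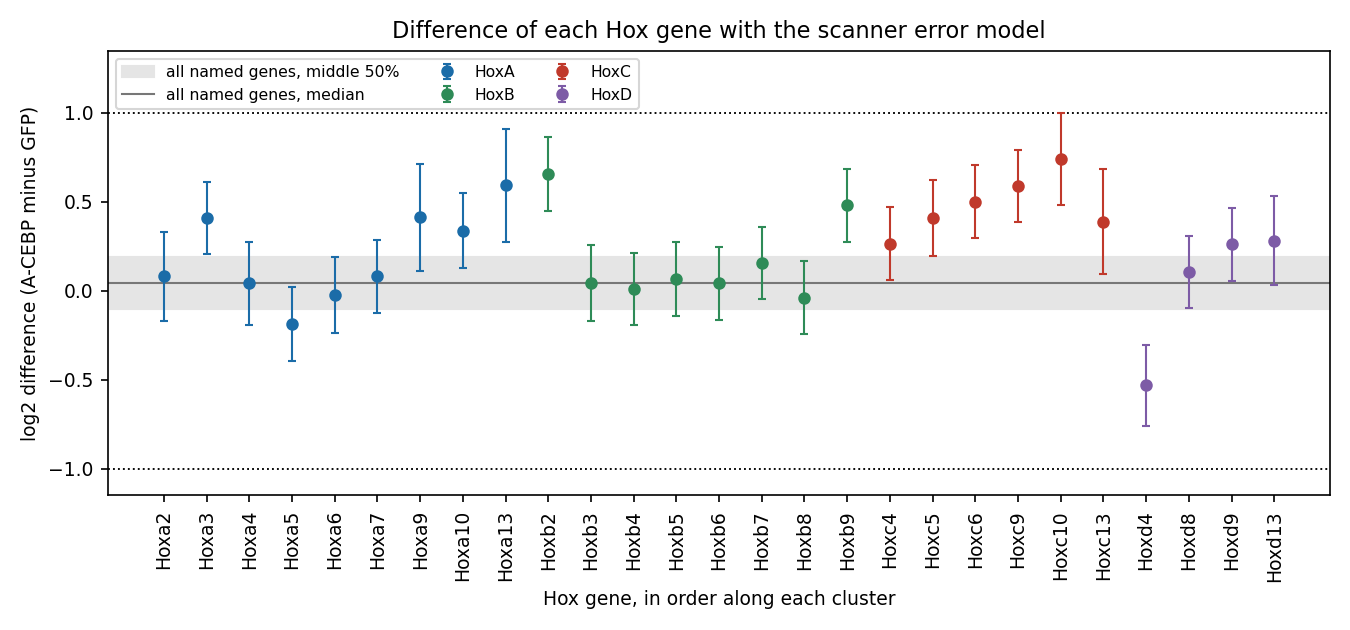
Log2 difference of each Hox gene, A-CEBP minus GFP, coloured by cluster, with bars of ± the scanner software's error, the median and middle 50% of all named genes in grey and dotted lines at 2-fold. The 12 genes that are posterior or of HoxC stand at 0.26 or more; of the other 15, Hoxa3 and Hoxb2 stand as high and Hoxd4 lies at -0.53.

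Central HoxA and HoxB genes were close to equal in the 2 cultures. Hoxa7 read 12624 units (GFP) and 13861 (A-CEBP), a difference of 0.08 ± 0.20. Hoxb7, of the same group, read 13872 and 16056 units (0.16 ± 0.20), and Hoxb4, also known from blood stem cells, 2545 and 2661 units (0.01 ± 0.20). Hoxb6 (2629 and 2810 units, 0.04), Hoxb5 (327 and 355 units, 0.07) and Hoxb8 (553 and 559 units, -0.04) lay as close. Hoxa4 differed by 0.04 and Hoxa6 by -0.02, and Hoxa5, a gene of the neck-to-thorax border and the lung, by -0.19 ± 0.21. None of these 9 differences exceeded its error. Closeness to 0 was common over all named genes, of which 40.9% differed by more than 0.19. Of the 15 seen members that are neither posterior nor of HoxC, a grouping made after the values were seen, 12 lay within 0.2 of 0.

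The 3 exceptions were Hoxb2, Hoxa3 and Hoxd4. Hoxb2, a hindbrain gene, read 417 units (GFP) and 682 (A-CEBP), a log2 difference of 0.66 ± 0.21. Hoxa3, needed for the thymus, the parathyroid and the throat cartilages, read 1266 and 1746 units (0.41 ± 0.20). Hoxd4, a gene of the neck vertebrae, was the member with the largest difference downward, at 190 and 137 units (-0.53 ± 0.23, or 1.44-fold lower in the A-CEBP sample; -0.32 with normexp background). The other anterior members seen were near 0: Hoxa2, which patterns the second pharyngeal arch, read 89.8 and 98.7 units (0.08 ± 0.25). Hoxb3 read 226 and 243 units on one probe and 103 and 99.6 on the other, with differences of 0.04 and -0.11. On HoxD, Hoxd4 was thus lower while Hoxd8, at 1810 and 2023 units (0.11 ± 0.20), did not exceed its error.

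Cartilage markers were also higher in the A-CEBP sample, 8 of 10 by at least 1.5-fold (4.7% of all named genes were), with a list median of 0.67 and mean levels of 2.35 (GFP) and 3.12 (A-CEBP). Their part in the Hox differences was not tested. In RNA from a whole culture, more cells of a kind and more RNA per cell cannot be told apart. Signal strength moved little with the difference over all genes: the median difference was -0.02 for 1571 genes with a mean level below -3, 0.04 for 3845 genes from -3 to 0 and 0.05 for 8444 brighter genes. The 6 Hox members below -3 (Hoxa2, Hoxa9, Hoxa13, Hoxc10, Hoxc13 and Hoxd13) had a median of 0.40, where 48.4% of all genes in that range were above 0. Without them the posterior median stayed at 0.41, over 4 members, and the HoxC median at 0.45, over 4, but that of all Hox members was 0.11, over 21, in place of 0.26.

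Because A-CEBP acts on C/EBP factors, the promoters of Hox genes were searched for the letters that these factors bind, and the windows that bear on the result are shown. RefSeq start sites on the mouse assembly GRCm38.p6 gave 24 windows of 250 bases upstream for 22 of the 38 genes. The C/EBP letters searched were TTGCNNAA, on either strand. They occurred in 2 of 24 Hox windows (8.33%), against 9.56% of all 32851 windows of that length. Both were at genes seen on neither array, the first of 2 start sites of Hoxd11 and Hoxd12, and none of the 16 windows of genes seen on both arrays held them. The windows of Hoxd11 and Hoxd12, with the match in capitals, are printed with those of Hoxa3 and Hoxd4, which differed most in each direction among genes with a window and a signal clear of the dim range, and which have no match.
Hoxa3, chr6:52213068-52213317, minus strand: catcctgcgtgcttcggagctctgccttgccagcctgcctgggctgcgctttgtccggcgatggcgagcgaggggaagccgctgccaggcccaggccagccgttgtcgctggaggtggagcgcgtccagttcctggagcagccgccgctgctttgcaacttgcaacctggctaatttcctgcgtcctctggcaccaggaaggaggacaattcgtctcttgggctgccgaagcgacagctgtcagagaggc
Hoxd4, chr2:74721728-74721977, plus strand: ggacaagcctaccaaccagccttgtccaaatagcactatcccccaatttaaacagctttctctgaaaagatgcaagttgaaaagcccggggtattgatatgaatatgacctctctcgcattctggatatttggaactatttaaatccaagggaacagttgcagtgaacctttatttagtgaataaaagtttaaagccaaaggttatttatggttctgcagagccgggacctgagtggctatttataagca
Hoxd11, chr2:74679308-74679557, plus strand: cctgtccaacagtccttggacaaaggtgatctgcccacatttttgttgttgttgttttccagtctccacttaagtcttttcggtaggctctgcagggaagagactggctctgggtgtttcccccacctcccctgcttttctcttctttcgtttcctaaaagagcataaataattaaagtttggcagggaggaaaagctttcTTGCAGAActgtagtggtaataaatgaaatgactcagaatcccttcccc
Hoxd12, chr2:74674763-74675012, plus strand: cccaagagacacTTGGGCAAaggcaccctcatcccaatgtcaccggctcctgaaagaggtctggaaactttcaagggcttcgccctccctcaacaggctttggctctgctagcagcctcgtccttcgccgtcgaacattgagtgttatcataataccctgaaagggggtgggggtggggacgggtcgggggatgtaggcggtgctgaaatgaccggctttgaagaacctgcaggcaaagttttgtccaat
The match at Hoxd11 lies 49 to 42 bases before the start site and that at Hoxd12, on the opposite strand, 238 to 231 bases before it. A match is a description of letters and says nothing of binding, and enhancers farther away were not searched. The 250-base windows of Hox genes had a median GC content of 58.6% and an observed-to-expected CpG ratio of 0.72, against 52.4% and 0.37 for all windows. The letters TGATNNAT, bound by Hox proteins together with Pbx partners, occurred in 4 of 24 Hox windows (16.7%), those of Hoxa2, Hoxb1, Hoxb8 and the second Hoxd11 start, and in 7.68% of all windows. The Cdx letters TTTATNG occurred in 2 (8.33%), Hoxb8 and Hoxd4, against 9.81% of all windows.

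Hox proteins bind DNA with TALE homeodomain partners, and all 9 TALE genes were well above background on both arrays. Only Pknox2 was past 2-fold (1.26% of all named genes were that much higher), with a level of 0.54 (GFP) and 1.58 (A-CEBP), a difference of 1.05 ± 0.20 from a single probe. With the authors' deposited values it fell just under 2-fold, at 0.99. Meis3 differed by 0.45, but its 3 probes ranged from -0.09 to 0.45. Meis2 differed by 0.35, Meis1 by 0.09, Pbx2 and Pbx3 by 0.10 each, Pbx4 by -0.15 and Pknox1 by 0.08. The list's median was 0.10.

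None of the chromatin regulators seen on both arrays, which hold Hox clusters silent or active, was 2-fold apart. This was close to the share of all named genes, of which 2.96% were. The error was exceeded by 6 of 17 Polycomb genes and 2 of 9 of the trithorax list, against 36.9% of all named genes. Of 18 Polycomb genes, which keep Hox genes off outside their domains, 17 were seen on both arrays, none was 2-fold apart, and the median was 0.09. The furthest apart were Jarid2 (0.33), Suz12 (0.27), Cbx8 (0.26) and Bmi1 (0.25). Of 9 trithorax-group and H3K27 demethylase genes with a probe, which work the other way, none was 2-fold apart (median -0.03, but 0.17 with spike-in scaling, 0.02 without scaling and 0.01 with normexp background), with Kdm6b, a demethylase of the silencing mark, at 0.39, Men1 at 0.22, Kdm6a at -0.15 and Ash2l at -0.12.

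Retinoic acid, which activates anterior Hox genes in the embryo, had 13 pathway genes seen on both arrays, of which 2 were past 2-fold, both higher in the A-CEBP sample (1.26% of all named genes were). Cyp26b1, an enzyme that degrades retinoic acid, differed by 1.06 ± 0.20, with levels of 0.87 (GFP) and 1.93 (A-CEBP). Aldh1a3, an enzyme that makes it, differed by 1.04 ± 0.21, and fell under 2-fold with the authors' deposited values (0.99) and with normexp background (0.89). The receptor gene Rara differed by 0.56 on the probe taken and 0.58 on the other. Cyp26a1 was dim and differed by -0.59 ± 0.38. The list's median was 0.17.

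Of 15 genes for axial patterning, including the Cdx activators of Hox clusters, 8 were seen on both arrays (53.3%, against 67.1% of all named genes). None of the 8 was 2-fold apart, where 2.96% of all named genes were (median 0.27). Cdx2 and Cdx4 were seen on neither array. Cdx1, dim at -4.55 and -4.12, differed by 0.42 ± 0.36, Gdf11, a growth factor that sets the start of posterior Hox expression, by 0.51 ± 0.24, Otx2 by -0.44 ± 0.45 and Egr2 by 0.31 ± 0.20.

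Other positional factors of the limbs and skeleton gave a mixed pattern of seen and unseen genes. Of 34, 22 were seen on both arrays (64.7%, close to the 67.1% of all named genes) and the other 12 on neither. Unseen were Tbx5 and Tbx4, the fore- and hindlimb selectors, the hindlimb gene Pitx1, Shox2 and Hand2, whereas Prrx1, Prrx2, Twist1, Msx1, Msx2 and 5 of 5 Dlx genes were seen. None was 2-fold apart, where 2.96% of all named genes were, and the median was 0.21. Dlx5, a skeletal homeobox gene, differed by 0.76 ± 0.20 and its neighbour Dlx6 by 0.48 ± 0.24, while Tbx18 differed by -0.51 ± 0.20.

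**Figure D4:**
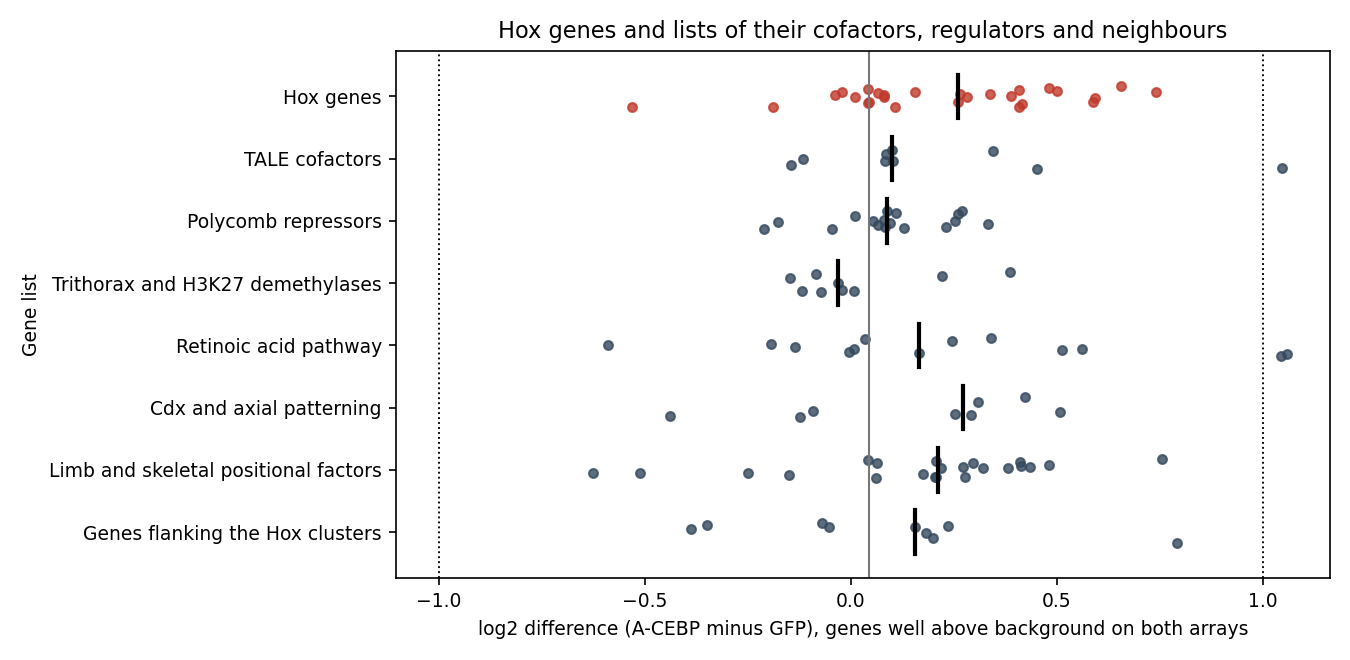
Log2 difference, A-CEBP minus GFP, of each gene well above background on both arrays, for the Hox genes (red) and lists of their partners, regulators and neighbours; black bars are list medians, the grey line is the median of all named genes (0.05) and dotted lines mark 2-fold. Only 3 genes, Pknox2, Cyp26b1 and Aldh1a3, lie past 2-fold, and the Hox median of 0.26 is next to that of the axial patterning list (0.27).

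Genes that flank the clusters were also described. Of 11 with a probe 9 were seen on both arrays (81.8%, against 67.1% of all named genes). None was 2-fold apart, where 2.96% of all named genes were. The median was 0.16, but -0.05 over all 11 without a detection filter. The HoxC neighbours Calcoco1 and Smug1 differed by 0.24 ± 0.20 and 0.16 ± 0.20, under the 0.45 median of HoxC. Calcoco1 was close to Hoxc4 (0.27 ± 0.20). Whether the HoxC differences run on past the cluster was not tested. The HoxA-side genes Skap2 and Snx10 differed by -0.39 and -0.35, and Skap1, beside HoxB, by 0.79 ± 0.22. Evx1 and Evx2, the homeobox genes at the posterior ends of HoxA and HoxD, were seen on neither array.

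Of 16 noncoding RNA genes of the clusters 2 had a matched probe, and both were seen where the Hox gene they are named after was not. Hoxa11os read 44.6 units (GFP) and 55.0 (A-CEBP) (0.25 ± 0.39), while Hoxa11 was unmarked. Hoxd3os1 read 112 and 105 units (-0.16 ± 0.25), while Hoxd3 was unmarked. Neither difference exceeded its error, and which stretch each probe reads was not determined.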

How the data were processed

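Per the labels, each culture gave RNA for 1 Agilent mouse array of 1 colour. The authors deposited scanner output with an intensity for every spot; per the file headers, Feature Extraction 10.10.1.1 had removed background and spatial trends, and the arrays were not scaled to each other. In the deposited series table each intensity column equals that array's processed signal times a constant, 1.24 (GFP) and 1.15 (A-CEBP). Both arrays shared 1 slide and 1 scan, per the file headers.

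The log2 signal minus each array's 75th percentile over non-control spots (872 and 906 units) is called the level. The 293 spots marked as outliers on either array were left out and spots of a probe averaged. A probe counted as seen with more than 50% of its spots marked well above background. A gene took the probe with the highest mean level among those seen on both arrays. Probes were named through RefSeq transcripts of GRCm38.p6: 27229 of 55671 (48.9%) matched 1 gene. RefSeq lists 39 mouse Hox genes, of which 1 is not reported here, nor are some genes of the other lists. Calls were by size, at 2-fold. Every described Hox and TALE gene was named, and up to 4 members per pathway list, those furthest apart; other genes in the text were chosen with their values in view. Members and lists were chosen with earlier results of these data known. Hybridisation between paralogues was not tested. The number of arrays limits the precision. Steps were run in Python 3.11.15 and limma 3.58.1 and tested on simulated data. Alternatives covered scaling, background, detection, outliers and the probe taken.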

Additional observations from a re-analysis of the deposited data

How the results depend on the processing

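The 27 Hox genes seen on both arrays were 27 also with a rule that every spot be marked and 31 with the looser mark; scaling, background and the probe taken do not touch this count. The count of Hox genes at least 2-fold apart, 0 otherwise, was 1 with the looser mark (Hoxc8, at 1.41), 2 without a detection filter (Hoxc8 and Hoxd3, at -1.43) and 4 at 1.5-fold, a threshold added after seeing the data. Hoxc8 in the GFP sample and Hoxd3 on both arrays were not well above background. The Hox median of 0.26 was 0.46 with scaling on spike-in spots, under which the all-gene median was 0.24 in place of 0.05, so that the Hox median stood 0.22 above all genes in both; across scalings, background, detection and probe choices it ranged from 0.12 (normexp) to 0.46. Relative to all genes it was 0.08 with normexp. All posterior and HoxC members seen on both arrays stayed above 0 under every scaling, background and probe choice tried, with medians from 0.23 to 0.61 and from 0.35 to 0.65, the lowest single values being Hoxd13 (0.02), Hoxa9 (0.05) and Hoxc13 (0.10) with normexp. Under looser detection this did not hold. With the looser mark 11 of 12 posterior and 7 of 8 HoxC members were above 0, and Hoxc12, which is both, was at -0.86. Without a detection filter 12 of 16 posterior and 8 of 9 HoxC members were above 0. Of the 27 members 19 kept their sign in every setting and 8, all within 0.2 of 0, did not. Of the 4 members past 1.5-fold, Hoxc9, Hoxc10 and Hoxa13 came under it with normexp (0.52, 0.37 and 0.21) and Hoxb2 (lowest value 0.61) did not. Normexp was not the only setting that did this, since Hoxa13 was at 0.54 with the authors' deposited values. Over all named genes, 410 were at least 2-fold apart, 271 with normexp, 945 with the looser mark, 1486 without a filter and 1179 at 1.5-fold; spike-in scaling turned 174 higher and 236 lower into 323 and 180. Normexp used the median spot signal and added 50 units to every spot, which by itself draws the differences of dim probes toward 0. Naming probes by a gene column was not run, as the files used here hold no such column. No paired analysis was possible because each group held 1 sample.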

Other observations

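ATDC5 came from a teratocarcinoma, and markers of pluripotent cells were looked at beside the Hox genes. Pou5f1 and Zfp42 were well above background on neither array. Nanog was seen on both, at levels of -0.48 (GFP) and -0.57 (A-CEBP), as was Sox2, at -0.66 and -0.45, and Esrrb was dim, at -3.66 and -4.14. Of the neural markers Neurod1 was seen on neither array and Pax6 in the A-CEBP sample only, while Map2 differed by 0.90 on one probe and 0.53 on the other. Among epithelial markers Krt18, at 2.48 and 1.84, differed by -0.63, Krt14 by -0.41 ± 0.26 and Krt8 by -1.03 ± 0.39, which came under 2-fold with spike-in scaling (-0.83), normexp background (-0.57), no scaling (-0.97) and quantile normalization (-0.99).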
